A study of Mus musculus with 4 samples.

Results

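A set of 10 mouse predicted genes known for lying near major satellite repeats was followed in RNA from sorted kidney cells: Gm10800, Gm10801, Gm21738, Gm10715, Gm10717, Gm10718, Gm10720, Gm10721, Gm10722 and Gm11168. They were picked by symbol, 10 of the 52636 gene identifiers counted, after earlier results of these libraries had shown their levels in Brg1-cKO cells against control. Their levels in that contrast are therefore a description, and no test of it is given for them. The mutant condition is labelled Brg1-cKO, where cKO usually stands for conditional knockout, and Brg1 is the protein of Smarca4, an ATPase of the SWI/SNF chromatin remodelers. The second condition is labelled control, and each has 2 libraries. Cells of both conditions were purified by fluorescence-activated sorting from kidney, and each library was prepared from RNA of 3000 cells, with mRNA purified on beads. The deleting allele, the Cre driver, the sorting marker, the age of the animals and whether replicates are separate animals are not stated in the labels, so the spread between libraries may be technical.

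The major satellite is the main repeat of mouse pericentromeric heterochromatin, the compact chromatin beside the centromeres. It is built of head-to-tail copies of an A and T rich unit, is bound by HP1 proteins and carries histone H3 lysine 9 methylation laid down by the Suv39h enzymes. Most copies are missing from the assembled genome, and the few that are assembled carry open reading frames that automatic annotation turned into predicted genes. No function is given here for any of the 10. All 10 are annotated as protein coding in GENCODE M21 on mm10.

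A 234-base stretch of the exons is shown for each of the 5 genes that held more than a few reads, since their likeness bears on every count that follows. Each stretch runs 5′ to 3′ along the transcript, and capitals mark each copy of the 12-base word TTTTCAGTTTTC. That word was chosen as the one held by all 10 genes with the most copies in them. The sequences are GENCODE M21 transcript sequences, so a stretch may join exons and its coordinates then include the introns between them.
Gm10800: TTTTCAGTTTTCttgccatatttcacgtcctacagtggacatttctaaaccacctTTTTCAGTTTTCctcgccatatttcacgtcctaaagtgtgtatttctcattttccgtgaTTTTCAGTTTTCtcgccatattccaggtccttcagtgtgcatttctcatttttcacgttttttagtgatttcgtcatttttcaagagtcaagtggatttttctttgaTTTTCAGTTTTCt
Gm10801: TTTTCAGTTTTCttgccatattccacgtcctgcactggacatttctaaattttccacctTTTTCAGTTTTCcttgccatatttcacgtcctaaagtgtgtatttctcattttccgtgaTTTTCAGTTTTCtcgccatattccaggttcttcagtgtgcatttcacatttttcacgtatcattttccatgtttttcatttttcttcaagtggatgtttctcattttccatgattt
Gm21738: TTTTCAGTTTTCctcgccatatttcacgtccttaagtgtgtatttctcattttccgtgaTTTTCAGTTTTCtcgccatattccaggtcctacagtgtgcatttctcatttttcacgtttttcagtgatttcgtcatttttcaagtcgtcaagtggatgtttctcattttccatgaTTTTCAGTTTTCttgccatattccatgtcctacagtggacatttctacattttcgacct
Gm10722: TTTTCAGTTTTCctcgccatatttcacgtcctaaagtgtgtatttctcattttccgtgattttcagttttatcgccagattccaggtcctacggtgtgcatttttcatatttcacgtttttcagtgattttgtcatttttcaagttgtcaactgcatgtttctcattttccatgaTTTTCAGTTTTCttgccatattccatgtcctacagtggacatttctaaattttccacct
Gm10717: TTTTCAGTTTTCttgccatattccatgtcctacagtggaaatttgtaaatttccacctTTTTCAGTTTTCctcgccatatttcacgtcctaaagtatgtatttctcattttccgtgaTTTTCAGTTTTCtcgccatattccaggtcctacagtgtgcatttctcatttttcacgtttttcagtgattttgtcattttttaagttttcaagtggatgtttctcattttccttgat
The stretches lie on mm10 at chr2:98667018-98667281 (minus strand) for Gm10800, chr2:98662325-98663836 (plus) for Gm10801 and chr14:19417218-19418851 (minus) for Gm21738. Those of Gm10722 and Gm10717 lie at chr9:3000971-3001204 and chr9:3025437-3025670, both plus. The longest transcripts of the 10 genes held 5 to 8 copies of the word, and 0 copies on the other strand. Of 101795 other GENCODE transcripts of at least 600 bases, 53 (0.0521%) held it on either strand within their first 660 bases. These leave out 3 further genes that share a word of 25 bases with the 10. Since the word was chosen from the 10 genes, the contrast is a description only.

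The genes did not only lie near the repeat: their exons were repeats of themselves. For 7 of the 10 genes, the longest transcript matched itself best when shifted by 234 bases, the length usually given for the major satellite unit. The best shift was 225 bases for Gm10800, 231 for Gm10801 and 237 for Gm11168. Identity at the best shift was 52.7% to 67.6%, against a median of 30.7% to 31.8% over shifts of 20 to 300 bases. The transcripts were 64.02% to 65.7% A and T. Aligned to each other without counting gaps, the 45 pairs were 91.2% to 98.8% identical, with a median of 96.3% between 2 genes of chromosome 9 and 93.6% in the other pairs. The annotated gene models are odd in shape: 10 of the 36 introns of the longest transcripts are under 50 bases, and Gm10800 has an intron of 1 base.

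The genes lie in 3 places. Gm10800 (ENSMUSG00000075014, chr2:98666547-98667301, minus strand) and Gm10801 (ENSMUSG00000075015, chr2:98662237-98664083, plus) are close together on chromosome 2. Gm21738 (ENSMUSG00000095280, chr14:19415857-19418930, minus) is alone on chromosome 14. The other 7 follow each other on the plus strand of chromosome 9, from Gm10722 (starting at 3000922) to Gm10715 (ending at 3038316). Only 3 other genes of the annotation share a word of 25 bases with them, namely Gm10719 and Gm17535, which lie between the 7 on chromosome 9, and Gm26870, a long noncoding RNA gene on the opposite strand that spans them. Of 9353 exon bases of the chromosome 9 members, 964 overlap exons of Gm26870. The library kit keeps strand, but the labels do not say whether counting used strand, so reads in the overlap cannot be told apart if it was ignored.

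Near-identical copies limit what a count of these genes means, because the files keep reads aligned to several places on a line of their own and out of the gene counts. Each stretch of 75 bases, the read length, was therefore compared with every other place in the 13 genes of this family. Gm10801 had 97.2% of its 75-base windows found nowhere else in the family, Gm10800 89.8% and Gm21738 75.6%. The chromosome 9 members had 19.5% (Gm10720) to 61.7% (Gm11168). With up to 2 mismatches allowed the shares fell to 61.9% for Gm10801, 48.3% for Gm10800 and 33.9% for Gm21738, and Gm10721 kept 0 of its 595 windows. The genome itself was not searched, so these shares are upper limits. Most copies of the repeat are missing from the assembled genome, so a uniquely aligned read need not come from the gene that counted it. This holds for high counts too, and the origin of the reads was not tested. The 3 genes with the largest shares of unique windows also had the most reads. By number of exactly unique windows the order was another, with 1818 for Gm10717 and 1221 for Gm11168 against 526 for Gm10800. Windows were counted over all annotated transcripts of a gene. Across the 10 genes Spearman's rho between the share of exactly unique windows and the counts of the 4 libraries together was 0.77. With windows unique at up to 2 mismatches it was 0.58. The points share libraries and near-identical sequence, and the coefficients are descriptions.

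**Figure D1:**
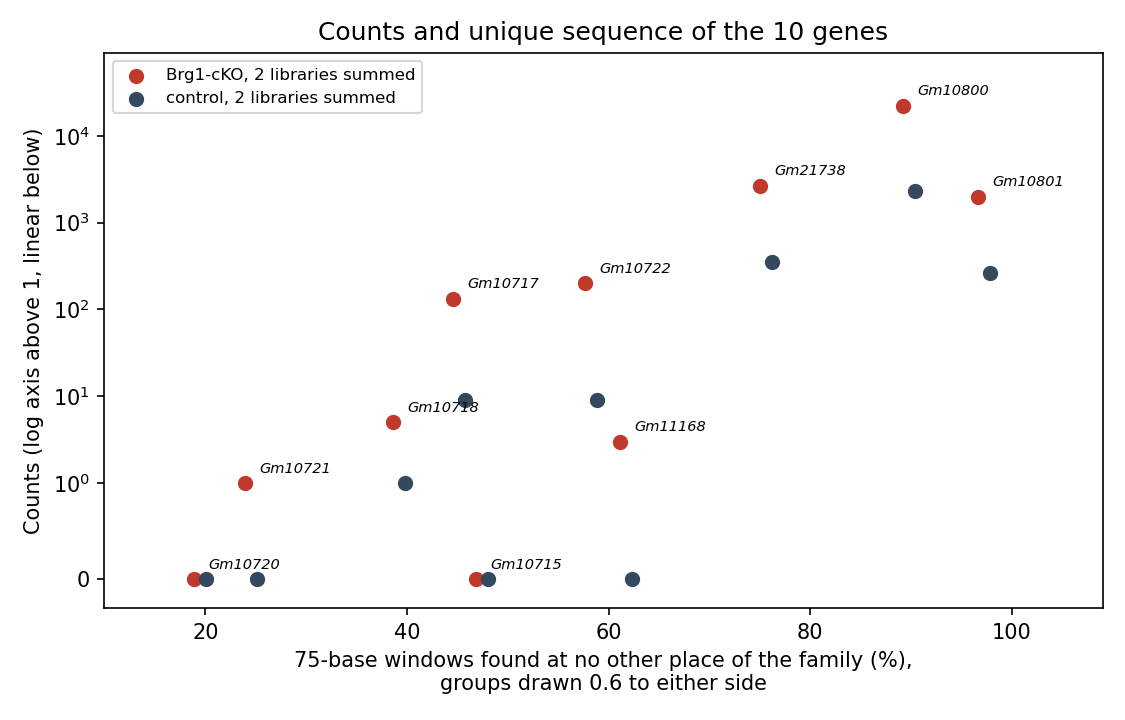
Counts of each predicted gene (2 libraries of a group summed, log axis above 1 and linear below) against the share of its 75-base windows found at no other place of the 13-gene family. Gm10800, Gm10801 and Gm21738, with 75.6% or more unique windows, carry nearly all reads, and Gm10715 and Gm10720 are at 0 counts in both groups.

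Gm10800 held most of the reads. It was at 806.5 and 983 CPM (counts scaled to 1000000 reads on genes) in the Brg1-cKO libraries, against 36.6 and 26.5 CPM in the control libraries. Both Brg1-cKO libraries were far above both controls, and the lowest ratio between a Brg1-cKO and a control library was 22.0. The raw counts behind these levels were 11593 and 10568 in Brg1-cKO and 1315 and 1027 in control. Among all genes of a library, Gm10800 ranked 88th and 52nd by count in the Brg1-cKO libraries, against 6109th and 7272nd in the control libraries. Its fitted log2 fold change was 4.83 (edgeR, SE 0.25). In bulk RNA, more transcript per cell and more cells that hold the transcript cannot be told apart, here and for all genes that follow. Whether all counted reads came from transcripts was not tested either.

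Gm21738 and Gm10801 were next. Gm21738 was at 112 and 98.4 CPM in Brg1-cKO cells, against 5.59 and 4.001 CPM in control. Gm10801 was at 55.0 and 112 CPM in Brg1-cKO cells, against 4.23 and 2.94 CPM in control. The groups did not overlap for either gene, and Gm10801 differed more between the Brg1-cKO libraries than Gm21738 did. The fitted log2 fold changes were 4.45 (SE 0.33) for Gm21738 and 4.54 (SE 0.55) for Gm10801. Without Brg1-cKO replicate 2 that of Gm10801 was 3.92. Per kilobase of exon, the level in Brg1-cKO was 1355 ± 189 CPM for Gm10800, 166 ± 80.3 for Gm10801 and 154 ± 13.8 for Gm21738 (SD, n = 2). In control the levels per kilobase were 47.8 ± 10.8, 7.11 ± 1.80 and 7.04 ± 1.65 CPM for the same genes in that order. The levels per kilobase of Gm10801 and Gm21738 did not differ beyond their spread in either group, and Gm10800 stood above both in each of the 4 libraries.

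**Figure D2:**
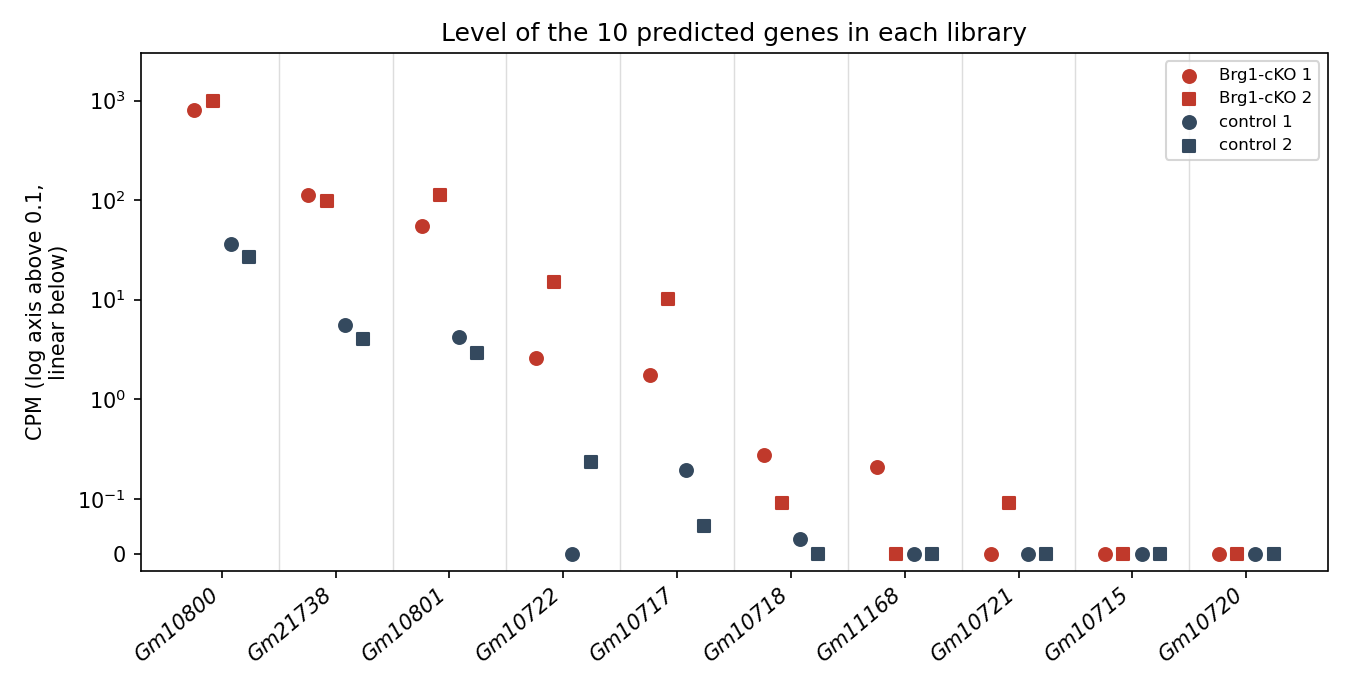
CPM of the 10 predicted genes in each of the 4 libraries (log axis above 0.1, linear below), with Brg1-cKO in red and control in dark blue. For the 3 genes of chromosomes 2 and 14, at 55.0 CPM or more in Brg1-cKO and 36.6 CPM or less in control, the groups do not overlap, and the chromosome 9 members are lower and vary more.

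The chromosome 9 members held few reads. Gm10722 had 37 and 162 counts in Brg1-cKO cells, against 0 and 9 in control. Gm10717 had 25 and 108 counts in Brg1-cKO cells, against 7 and 2 in control. Both were highest in Brg1-cKO replicate 2. On the CPM scale Gm10722 was at 2.57 and 15.1 in Brg1-cKO cells against 0 and 0.232 in control, and Gm10717 at 1.74 and 10.04 in Brg1-cKO cells against 0.195 and 0.0516 in control. The fitted log2 fold changes had wide errors, 6.18 (SE 2.56) for Gm10722 and 5.53 (SE 1.84) for Gm10717. Single libraries moved both: without Brg1-cKO replicate 2 they were 4.38 for Gm10722 and 3.76 for Gm10717, and without control replicate 1 that of Gm10717 was 6.65. The remaining members were at or near 0. Gm10718 had 4 and 1 counts in Brg1-cKO cells against 1 and 0 in control, Gm11168 had 3 and 0 against 0 and 0, and Gm10721 had 0 and 1 against 0 and 0. Gm10715 and Gm10720 had 0 counts in all 4 libraries, where a count of 0 allows up to 0.209 and 0.279 CPM in the Brg1-cKO pair and 0.0835 and 0.0774 CPM in the controls (3 counts, counting error only). With much of their sequence shared, a low count of these genes does not say that few reads came from them.

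The other genes of the chromosome 9 array separated the Brg1-cKO libraries further. Gm10719 had 0 and 300 counts in Brg1-cKO cells, against 1 and 0 in control. Gm26870, on the opposite strand, had 1 and 154 counts in Brg1-cKO cells, against 0 and 2 in control. Gm17535 had 0 and 4 counts in Brg1-cKO cells, against 0 and 0 in control. Together the 10 genes of the array, members included, had 70 and 730 counts in Brg1-cKO, or 4.87 and 67.9 CPM, against 9 and 13 counts in control, or 0.250 and 0.336 CPM. Brg1-cKO replicate 2 alone thus holds most of the reads of the array. Gm10719 stands out as the gene with reads in essentially 1 library, a remark made after its values were seen.

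Most surrounding genes had no reads. Within 200 kb of a member, 25 other counted genes lie, of which 14 had 0 counts in all 4 libraries and 1 passed the filter on low counts. That gene, Gm2237 on chromosome 14, was at 1.95 and 3.25 CPM in Brg1-cKO cells against 2.81 and 1.01 CPM in control, so the groups overlapped. Apart from Gm10719, Gm17535 and Gm26870, the only neighbour with any count in a Brg1-cKO library besides Gm2237 was Gm2244, with 0 and 4 counts against 0 and 0 in control.

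Summed over the 10 genes, 14059 and 13105 reads were counted in the Brg1-cKO libraries, against 1676 and 1307 in the control libraries. They made up 0.0960% (95% Wilson interval 0.0944% to 0.0976%) and 0.120% (0.118% to 0.122%) of gene counts in the Brg1-cKO libraries. The same shares in control were 0.00473% (0.00451% to 0.00496%) and 0.00344% (0.00326% to 0.00363%). On the CPM scale the sum was 978 and 1219 in Brg1-cKO cells, against 46.6 and 33.7 in control, a ratio of group means of 27.3 and a log2 ratio of 4.77. Ratios between single libraries ran from 20.97 to 36.1. Without Gm10800 the log2 ratio was 4.56, with both Brg1-cKO libraries again above both controls.

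The lines of the files for reads given to no gene moved as well. Uniquely aligned reads that fell in no counted feature were 49.5% and 57.2% of all uniquely aligned reads in the Brg1-cKO libraries, against 16.5% and 15.4% in the controls. Reads that did not align made up 21.3% and 25.5% of all reads in Brg1-cKO cells, against 6.32% and 6.69% in control. The line for reads with several alignments was at 7.27% and 6.55% of all reads in Brg1-cKO cells, against 9.06% and 9.06% in control, lower in Brg1-cKO on this scale. As a share of aligned reads only, it was 9.24% and 8.78% in Brg1-cKO cells against 9.68% and 9.71% in control. Set against gene counts, the scale of the members' CPM, the direction turned: there were 0.223 ± 0.0170 such reads for each gene count in Brg1-cKO cells against 0.133 ± 0.000862 in control (SD, n = 2), a ratio of 1.67 with single-library ratios of 1.57 to 1.77. On each of these measures the Brg1-cKO libraries did not overlap the controls. An exact permutation test of 2 against 2 libraries cannot go below p = 0.33, so no call was made on them.

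The size of the difference depended on the total against which the members were set. Per 1000000 uniquely aligned reads, the sum was 463 and 492 in Brg1-cKO cells, against 37.8 and 27.8 in control, a ratio of means of 14.5. Per 1000000 reads of the whole file it was 331 and 334 in Brg1-cKO cells, against 32 and 23.5 in control, a ratio of 11.99. Per 1000000 reads aligned to several places it was 4549 and 5106 in Brg1-cKO cells, against 353 and 259 in control, a ratio of 15.8. Per 1000000 reads outside genes it was 936 and 859 in Brg1-cKO cells, against 229.9 and 181 in control, a ratio of 4.37 with single-library ratios of 3.74 to 5.16. Reads outside genes were themselves 3.36 times as large a share of uniquely aligned reads in Brg1-cKO. The members thus stood higher in Brg1-cKO on all 5 scales, by a factor that was lowest relative to reads outside genes. The part of the reads outside genes in the higher gene-level values was not tested beyond this ratio.

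**Figure D3:**
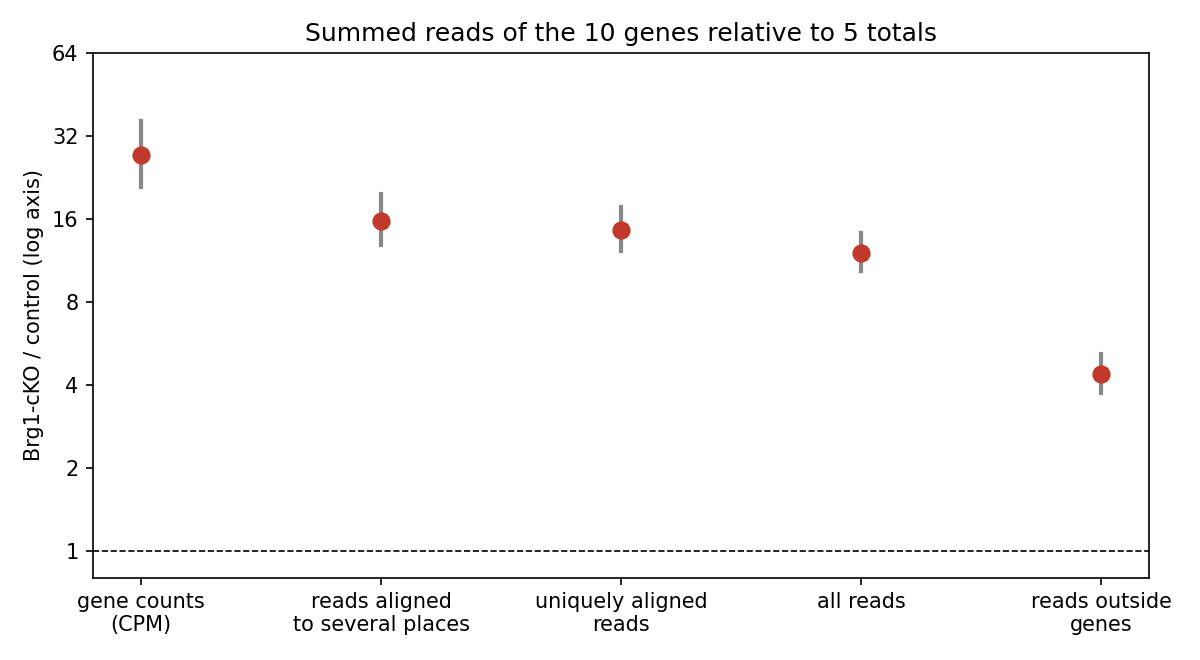
Ratio of Brg1-cKO to control for the summed reads of the 10 genes relative to 5 totals (log axis). Points are ratios of group means and lines run from the lowest to the highest ratio between single libraries, from 27.3 relative to gene counts to 4.37 relative to reads outside genes, all above the dashed line at 1.

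The share of each gene in the sum was not used to choose the genes. Gm10800 held most of the summed reads in each of the 4 libraries. Gm10800 made up 82.5% (95% Wilson interval 81.8% to 83.1%) and 80.6% (80.0% to 81.3%) of the summed counts in Brg1-cKO. In control it made up 78.5% (76.4% to 80.4%) and 78.6% (76.3% to 80.7%). Both Brg1-cKO shares lay above both control shares, by 3.03 percentage points on average, but the interval of Brg1-cKO replicate 2 overlapped those of both controls. Gm21738 made up 11.4% and 8.07% in Brg1-cKO cells, against 11.99% and 11.9% in control. Gm10801 made up 5.63% and 9.21% in Brg1-cKO cells, against 9.07% and 8.72% in control. For both genes, 1 of the Brg1-cKO libraries lay within the intervals of the controls and the other below them. Gm10800 had 14.7 and 8.76 reads for each read of Gm10801 in Brg1-cKO cells, against 8.65 and 9.01 in control. The 7 chromosome 9 members made up 0.491% and 2.08% in Brg1-cKO cells, against 0.477% and 0.842% in control. The intervals cover counting error only, and no test over conditions was made. The libraries of Brg1-cKO therefore differed from each other in make-up by more than the controls did, while their summed levels relative to all reads were nearly equal.

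**Figure D4:**
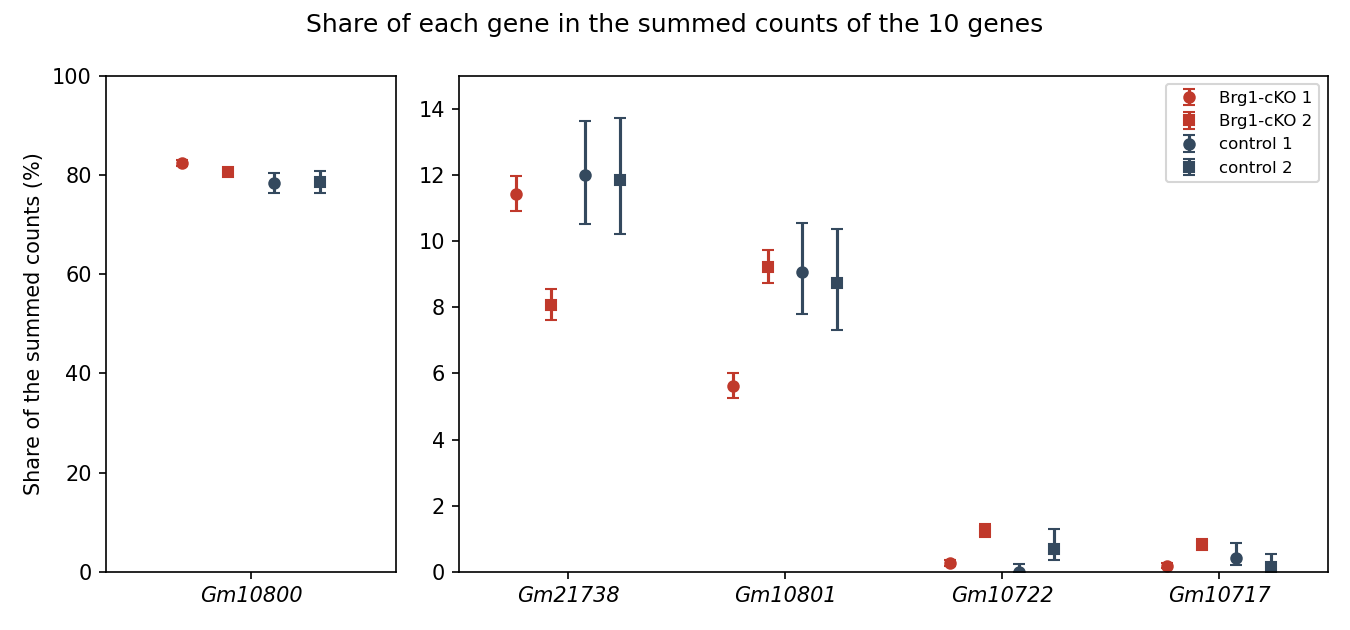
Share of each gene in the summed counts of the 10 genes, per library, with 95% Wilson intervals. The left panel has Gm10800, at 78.5% to 82.5% in all libraries, and the right panel the next 4 genes on a smaller scale, where Gm21738 is low in Brg1-cKO replicate 2 and Gm10801 in Brg1-cKO replicate 1.

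Across the 18172 genes that passed the filter on low counts, 0 (0.0%) had an adjusted p under 0.05 in edgeR's quasi-likelihood test. At an unadjusted p under 0.05 there were 3328 (18.3%), and DESeq2 and limma-voom called 2027 (10.8%) and 327 (1.8%). Of the 10 members, 5 passed the filter: Gm10800, Gm10801, Gm21738, Gm10717 and Gm10722. Both Brg1-cKO libraries lay above both controls for 6 of the 10 on the CPM scale, these 5 and Gm10718, which had 4 counts or fewer in any library. Of all genes tested 17.5% did so, and 34.5% lay below both controls in both Brg1-cKO libraries. Nothing is read from the members' count or from their ranks given next, since they were chosen from this contrast. Among the 15441 tested genes with a mean of at least 1 CPM in control, the log2 fold changes of Gm10800, Gm10801 and Gm21738 ranked 8th, 12th and 16th from the top. Over all genes tested they ranked 293rd, 358th and 381st, behind genes that were nearly silent in control.

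**Figure D5:**
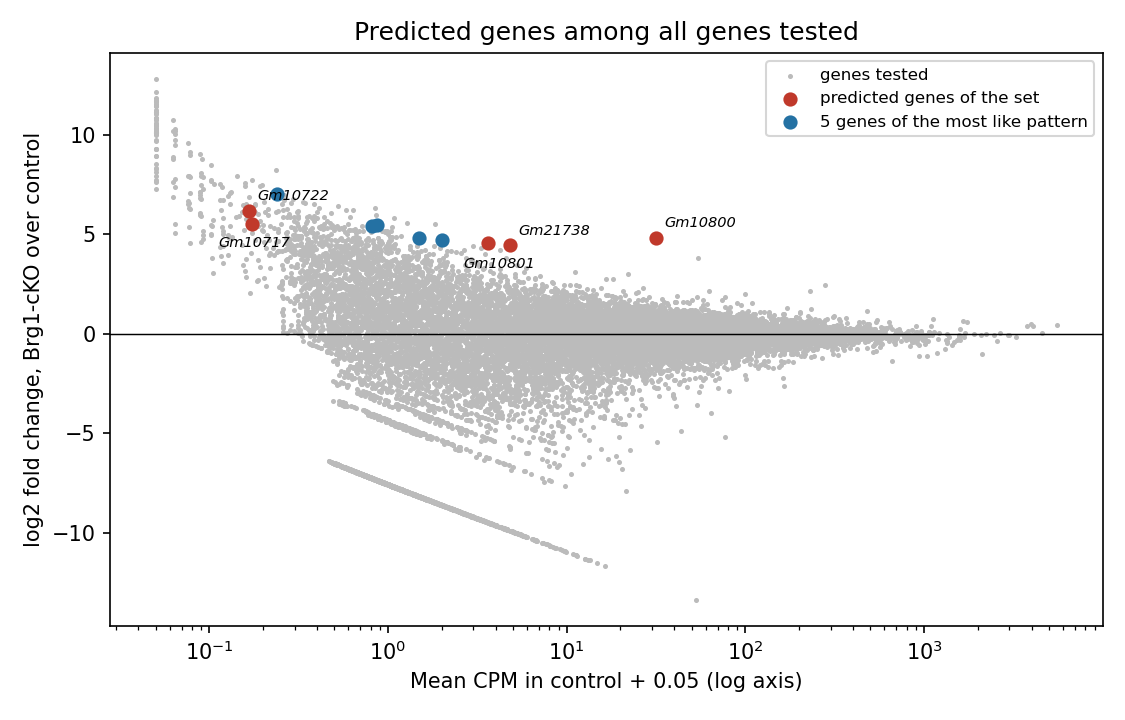
Fitted log2 fold change of Brg1-cKO over control against the mean CPM in control plus 0.05 (log axis) for the 18172 genes tested (grey). The 5 predicted genes that passed the filter are red, with Gm10800 at 4.83 near the upper edge of the genes at its control level, and the 5 genes with the most like pattern are blue.

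The other predicted genes were spread to both sides. Of 25308 other genes named Gm and a number, 2869 were tested, with a median log2 fold change of -0.20 beside -0.06 over all genes tested, and 47.1% were higher in Brg1-cKO, as were 47.0% of all genes. For 13.7% of them both Brg1-cKO libraries lay above both controls. A log2 fold change of at least 4 was fitted for 268 of the 2869, beside 519 of all 18172 genes tested. Values as high as those of the members were thus not particular to them. The summed level of the other predicted genes was higher, at 19105 and 19343 CPM in Brg1-cKO cells against 9879 and 10057 CPM in control. Among 10253 genes at a mean of 10 CPM or more, the 5 whose log2 profile over the 4 libraries was closest to that of the summed members were Rimbp2, A930012L18Rik, Upk3b, Cd274 and Gm44027. Their Euclidean distances on the log2 scale were 0.25 to 0.81. Rimbp2, which encodes a synaptic scaffold protein, was at 35.7 and 36.1 CPM in Brg1-cKO cells, against 1.09 and 0.542 CPM in control. Cd274, which encodes the immune checkpoint ligand PD-L1, was at 46.3 and 36.0 CPM in Brg1-cKO cells, against 1.53 and 1.37 CPM in control. Upk3b, a uroplakin gene of urothelium and mesothelium, was at 37.8 and 64.2 CPM in Brg1-cKO cells against 2.28 and 1.65 CPM in control. With 4 libraries many profiles are alike, and nothing about function follows from the distance.

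Genes that build and silence pericentromeric heterochromatin numbered 32 in the list used, and all were tested. With edgeR's quasi-likelihood test 0 passed the adjusted threshold and 5 had an unadjusted p under 0.05, as did 18.3% of all genes tested. Fitted values were higher in Brg1-cKO for 21 of them and lower for 11, where 47.0% of all genes were higher. Their median log2 fold change was 0.11, beside -0.06 over all genes tested, and without Brg1-cKO replicate 1 it was -0.019 beside -0.40 over all genes. The 6 with the highest control levels are given here. Trim28, the corepressor KAP1, was at 1309 and 902 CPM in Brg1-cKO cells against 1091 and 1069 in control. Atrx, a remodeler of heterochromatic repeats, was at 546 and 615 CPM against 562 and 503. Dnmt1, the maintenance DNA methyltransferase, was at 501 and 455 CPM in Brg1-cKO cells against 498 and 497 in control. For these 3 genes the groups overlapped. The log2 fold change of Trim28 was 0.03 (SE 0.20), and -0.29 without Brg1-cKO replicate 1. Dnmt3a, a de novo DNA methyltransferase, was at 522 and 429 CPM in Brg1-cKO cells against 445 and 437 in control. Cbx5, which encodes the heterochromatin protein HP1 alpha, was at 327 and 426 CPM in Brg1-cKO cells against 429 and 425 in control, and for both the groups overlapped. Lmnb1, the lamin of the nuclear rim where heterochromatin gathers, was at 689.5 and 610.0 CPM in Brg1-cKO cells against 851.5 and 882 in control, without overlap. Its log2 fold change was -0.42 with an SE of 0.10 and an adjusted p of 0.166 in edgeR's fit. The call depended on the tool, since DESeq2 gave an adjusted p of 0.0426. In edgeR's fit the log2 fold change was -0.53 without Brg1-cKO replicate 1 and -0.35 without replicate 2.

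Smarca4, the gene named by the knockout, was at 757 and 688 CPM for Brg1-cKO against 894 and 933 CPM for control, and its counts may include exons outside the deleted part. Xist was at 832 and 1199.5 CPM for Brg1-cKO against 243 and 216 for control, and the Y-linked Ddx3y at 1.04 and 3.25 against 75.6 and 78.4. Sex and genotype cannot be told apart here. Gene counts were 14645665 and 10922272 in the Brg1-cKO libraries and 35411905 and 37999342 in the controls. The member counts of Brg1-cKO were thus larger in libraries with fewer gene counts. The reads of the whole file differed less, at 42490725 and 39204365 in Brg1-cKO against 52375508 and 55728596 in control. Markers of nephron progenitors, the cells named in the title of the series, were present in all libraries, with 11 of 11 counted, 7 with higher and 4 with lower fitted values, and summed levels of 2707 and 2603 CPM in Brg1-cKO cells against 2233 and 2217 CPM in control. Within the list, Wt1, which podocytes also express, was at 659.7 and 617 CPM in Brg1-cKO cells against 363 and 372 in control, and Six2 at 233 and 126 against 241 and 236. Markers of podocytes stood higher, at 2649 and 2354 CPM in Brg1-cKO cells against 508 and 513 CPM in control, and 7 of 7 had higher fitted values. Markers of other cells were lower, as summed levels: stroma at 1300 and 1326 CPM in Brg1-cKO cells against 2633 and 2583 in control, ureteric bud at 166 and 173 against 269 and 259, endothelium at 226 and 122 against 502 and 508, and immune cells at 55.8 and 44.6 against 113 and 115. Calb1 and Wnt9b of the ureteric bud and C1qa of the immune list were at 0 counts in both Brg1-cKO libraries. Erythroid markers summed to 0 and 0.930 CPM in Brg1-cKO cells against 0.195 and 0.903 in control, with Hba-a1 and Hba-a2 at 0 in all libraries. Their part in the levels of the predicted genes was not tested.

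RNAs that carry no poly(A) tail or stay in the nucleus are given here beside the members, since the libraries were made from bead-purified mRNA. Of 16 genes for RNAs without a tail, 6 were tested, with a median log2 fold change of 0.06. The 16 summed to 207 and 25.7 CPM in Brg1-cKO cells against 32.4 and 28.7 CPM in control. By annotated class, snRNA genes summed to 156 and 114 CPM in Brg1-cKO cells against 31.7 and 24.4 in control. Genes for snoRNA summed to 352 and 204 CPM against 90.5 and 78.8, with a median log2 fold change of -1.14 over 44 tested. Those for miRNA overlapped, at 344 and 126 CPM against 131 and 136. Rn7sk, the 7SK RNA, was at 63.1 and 0.744 CPM in Brg1-cKO cells against 2.48 and 1.63 in control, so it was high in Brg1-cKO replicate 1 only. The linker histone gene Hist1h1e was at 116 and 0 CPM in Brg1-cKO cells against 0.918 and 1.14 in control, and Hist1h1c was at 11.2 and 3.44 against 13.02 and 11.4. The nuclear noncoding RNA Malat1 was at 891 and 778 CPM in Brg1-cKO cells against 904.5 and 874 in control. Kcnq1ot1 was at 194 and 119 CPM against 175 and 182, and Neat1 at 70.8 and 5.67 against 12.8 and 13.5. Gm26917, a noncoding gene known to take up ribosomal RNA reads, was at 1286 and 245 CPM in Brg1-cKO cells against 56.7 and 51.5 in control, and Lars2, a mitochondrial leucyl-tRNA synthetase gene with such reads too, at 31.8 and 53.5 against 28.0 and 33.3. Gm26917 was higher in both Brg1-cKO libraries, like the members, but differed more between them. The part of these RNAs in the members' levels was not tested.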

How the data were processed

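The files hold deposited counts, whole numbers per Ensembl gene in each library, and end with lines for reads that went to none (outside genes, ambiguous, unaligned or with several alignments), which made up 65.5% and 72.1% of all reads in Brg1-cKO and 32.4% and 31.8% in control and stayed out of library sizes. Per the submitters' processing notes, mm10, TopHat and DESeq2 were used; the tool, strand setting and gene models of the counting are not given in the sources used here. Positions, transcripts and symbols came from GENCODE M21 (mm10), which placed 52489 of 52636 identifiers. Groups and replicate numbers came from the sample titles. The fit used edgeR 4.0.16 in R 4.3.3 with group as its only term, TMM, the default filter (minimum count 10), the robust quasi-likelihood F test and Benjamini-Hochberg adjustment at 0.05. Each SE of a log2 fold change was computed as its absolute value over the square root of the test's F statistic. CPM uses TMM-scaled sizes. Profiles were compared as log2(CPM + 0.5), centred on the control mean. Sequences were compared with biopython 1.88. Functions were tested on simulated data. The alternatives included DESeq2 1.42.0 and limma 3.58.1.

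The members and lists were chosen with earlier results of these data known. The rule for named genes took all 10 members, neighbours within 200 kb, the 5 most alike profiles, the 6 heterochromatin genes highest in control and the 3 genes of each noncoding list with the highest mean CPM over the 4 libraries, which a single library can decide (Rn7sk, Hist1h1e, Neat1). In the list of ribosomal RNA overlaps only 2 were above 0. Reads carry no molecular identifiers, so intervals and floors cover counting error only.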

Additional observations from a re-analysis of the deposited data

How the results depend on the processing

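The summed members kept their direction under every alternative run. Their log2 ratio of 4.77 was 3.86 over uniquely aligned reads, 3.58 over all reads, and, chosen after seeing the data, 2.13 over reads outside genes and 3.98 over reads aligned to several places. Leaving out 1 library gave 4.56 to 5.02. Without Brg1-cKO replicate 2 the log2 fold changes of Gm10717 and Gm10801 were 3.76 and 3.92. That of Gm10722, 6.18, was 4.38 without Brg1-cKO replicate 2 and 10.47 without control replicate 2, which left it at 0 in control, where a fitted value rests on the prior count.

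The count of called genes, 0 in edgeR's quasi-likelihood test, was 2027 with DESeq2, 327 with limma-voom and 156 with the replicate block. Leaving out 1 library gave 16 to 13262, 12315 without Brg1-cKO replicate 1 and 13262 without replicate 2, where the lone library is taken to vary as the controls do, and 16 without either control. The sample titles do not say whether the replicate numbers pair the libraries. Same-numbered deviations correlated at -0.02 across genes, which with 2 libraries in each group cannot show whether they do. The median of the heterochromatin list, 0.11, was 0.16 with RLE, 0.058 with total gene counts and 0.16 with DESeq2, and -0.019 to 0.12 when 1 library was left out, where the median of all genes ran from -0.58 to 0.0065. Trim28, at 0.03, was at -0.29 without Brg1-cKO replicate 1 but 0.26 without replicate 2. Lmnb1 was called with DESeq2 at -0.36, and its value in edgeR was -0.53 without Brg1-cKO replicate 1 and -0.35 without replicate 2. Without replicate 1 Atrx was at 0.18 and Dnmt1 at -0.16, and without replicate 2 Dnmt3a was at 0.22 and Cbx5 at -0.41. No calls of single genes are given from these fits, which left 1 Brg1-cKO library. The difference in reads outside genes, 37.5 percentage points, was 23.7 over all reads and 33.6 to 41.3 without 1 library. The share of Gm10800 in the sum differed by 3.03 percentage points, by 1.75 with the other 3 genes of the family, and by 2.12 to 3.94 without 1 library.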
